A study of Mus musculus with 12 samples.

Results

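Transcripts of 10 inflammatory mediators were followed in HT22 cells, a mouse line immortalized from hippocampal neurons, when NCOA4 was depleted and iron was withdrawn. The members were the cytokines Il6, Lif and Csf1, the CC chemokines Ccl2, Ccl4, Ccl5 and Ccl7, the CXC chemokines Cxcl1 and Cxcl10, and the coreceptor Cd14, found by symbol among 24343 genes. They were chosen by their DFO induction in these same libraries, in siControl and siNCOA4 cells. Every contrast of the 4 groups enters that choice, so the members' changes are given as a description, with counts of calls set beside the share of all genes and with nothing read from them. RNA was sequenced in 12 libraries, 3 biological replicates in each of 4 groups. Cells transfected with control siRNA (siControl) or siRNA against Ncoa4 (siNCOA4) were kept at normal iron or treated with DFO at 100 µM for 24 h. All cells therefore carried liposome-delivered siRNA and came from a single line of unchanged genotype. DFO (deferoxamine) is an iron chelator, and NCOA4 is the autophagy receptor that carries ferritin to the lysosome, where its iron is released. Values are FPKM, fragments corrected for transcript length and library depth, which allow levels to be set side by side between genes.

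IL-6 and LIF belong to a cytokine family whose receptors share the signalling chain gp130, and CSF1 is the growth factor of macrophages and microglia. Chemokines recruit leukocytes along a gradient, CC chemokines mainly monocytes and T cells and CXC chemokines such as CXCL1 mainly neutrophils, while CXCL10 draws T cells. Many of these genes are transcribed through NF-kB, and their mRNAs are typically short-lived. CD14 hands lipopolysaccharide to the TLR4 receptor complex. In brain, microglia and astrocytes are the best known sources of these mediators.

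The label was checked first. Ncoa4 was at 6.46, 6.19 and 6.02 FPKM in siControl cells and at 0.770, 0.952 and 0.891 FPKM in siNCOA4 cells. With DFO it was at 8.70, 8.31 and 7.52 FPKM in siControl cells and at 0.850, 1.29 and 1.57 FPKM in siNCOA4 cells, so the target was low in every siNCOA4 library. The relative depth of the libraries, read from the step of 1 fragment in low genes and set to 1 in siControl replicate 1, ran from 0.928 to 1.41. The siNCOA4+DFO library of replicate 3 had the lowest depth, the highest Ncoa4 of the knockdown libraries and the lowest mean correlation with its group across genes (r = 0.930). Counts of members called in the contrasts that use it, and some of their log2 values, are also given without it. The gains and shares of mean FPKM and the values of other genes include it. Of 16 neuron markers, only Tubb3 and Dlg4 had a mean of 0.5 FPKM or more in each group, and Slc17a6 and Gad1 were listed at 0 in all libraries, so the neuronal label had little support among these markers. Of 10 fibroblast and mesenchymal markers 9 reached that level.

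The sequences just upstream of the transcription start are shown for the 5 members held by the RefSeq promoter table, since these are the stretches where inducible cytokine genes are classically controlled. The sequences are read 5′ to 3′ on the strand of the gene, build GRCm38.p6, and end at the base before the start. They come from chr5:30012864-30013113 (plus strand) for Il6, chr11:4257318-4257567 (plus) for Lif, chr3:107760470-107760719 (minus) for Csf1, chr5:90890995-90891244 (plus) for Cxcl1 and chr5:92348890-92349139 (minus) for Cxcl10. Capitals mark matches to the NF-kB consensus, the AP-1 site TGANTCA, the C/EBP site TTGNGCAA and the interferon-stimulated response element (GAAA repeated after 2 bases), searched on both strands.
Il6: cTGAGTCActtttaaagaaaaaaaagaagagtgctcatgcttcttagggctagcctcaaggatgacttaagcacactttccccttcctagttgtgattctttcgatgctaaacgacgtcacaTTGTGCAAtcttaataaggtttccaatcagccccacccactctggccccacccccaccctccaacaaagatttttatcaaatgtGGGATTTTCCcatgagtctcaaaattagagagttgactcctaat
Lif: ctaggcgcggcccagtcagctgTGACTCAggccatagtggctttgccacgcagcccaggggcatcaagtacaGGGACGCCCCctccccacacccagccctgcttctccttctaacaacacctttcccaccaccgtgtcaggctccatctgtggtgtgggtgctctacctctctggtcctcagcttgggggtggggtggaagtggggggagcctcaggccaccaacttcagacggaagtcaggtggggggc
Csf1: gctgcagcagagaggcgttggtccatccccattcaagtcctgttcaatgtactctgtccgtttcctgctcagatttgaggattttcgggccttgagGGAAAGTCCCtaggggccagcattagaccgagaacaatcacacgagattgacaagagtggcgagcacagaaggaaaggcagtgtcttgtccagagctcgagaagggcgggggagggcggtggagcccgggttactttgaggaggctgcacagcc
Cxcl1: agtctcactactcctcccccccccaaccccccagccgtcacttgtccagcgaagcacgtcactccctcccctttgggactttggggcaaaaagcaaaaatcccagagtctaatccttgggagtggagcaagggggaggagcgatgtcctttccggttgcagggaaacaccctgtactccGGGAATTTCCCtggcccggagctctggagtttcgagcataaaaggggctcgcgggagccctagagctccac
Cxcl10: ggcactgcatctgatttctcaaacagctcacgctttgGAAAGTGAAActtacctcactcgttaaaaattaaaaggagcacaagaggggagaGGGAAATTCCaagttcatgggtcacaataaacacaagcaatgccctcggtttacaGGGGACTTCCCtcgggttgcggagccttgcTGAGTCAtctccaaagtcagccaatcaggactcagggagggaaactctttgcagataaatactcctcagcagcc

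Each of the 5 stretches held a match to the NF-kB consensus, against 7.25% of the 32851 windows of the same length in the table. The match nearest the start was GGGATTTTCC in Il6, 44 bases upstream, followed by GGGAATTTCC in Cxcl1, 71 bases upstream. Cxcl10 held GGGAAATTCC 159 bases upstream and a further stretch, GGGGACTTCC overlapping GGGACTTCCC, 104 bases upstream. Those of Csf1 (GGAAAGTCCC, 154 bases upstream, read on the other strand) and Lif (GGGACGCCCC, 178 bases upstream) lay farther out. An AP-1 match was present in Il6, Lif and Cxcl10, against 6.75% of windows. The response element GAAAGTGAAA was found 213 bases upstream of Cxcl10 (2.98% of windows), and the C/EBP match TTGTGCAA 128 bases upstream of Il6 (2.61% of windows). The core of the hypoxia response element, not capitalized above, was searched as ACGTG, found in Cxcl1 (16.6% of windows), and as GCGTG, found in Lif and Cxcl10 (28.2% of windows). These matches describe the letters alone, and the motifs were picked with the genes known.

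**Figure D1:**
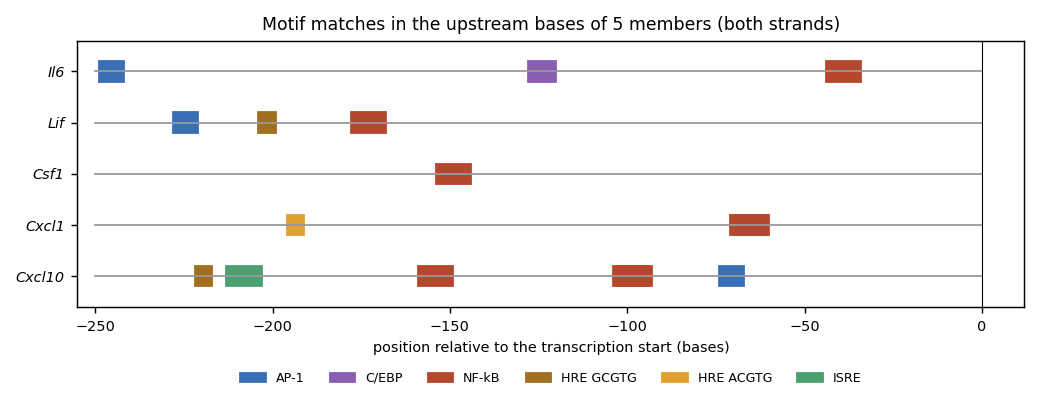
Positions of motif matches (coloured boxes) along the 250 bases upstream of the transcription start, in bases, for 5 members. Each of these 5 holds an NF-kB match, nearest the start in Il6, and the interferon-stimulated response element appears in Cxcl10 alone of the 5.

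Among the cytokines, Il6 was at or near 0 until iron was withdrawn. It was at 0.347, 0 and 0 FPKM in siControl cells and at 1.06, 0.548 and 0.495 FPKM in siNCOA4 cells. With DFO it was at 9.85, 12.8 and 7.09 FPKM in siControl cells but at 5.32, 2.90 and 1.51 FPKM in siNCOA4 cells. The 4 groups did not overlap, and the order of siControl and siNCOA4 cells was the reverse with DFO. About 1, 0 and 0 fragments lay behind the siControl values and 4, 2 and 2 behind those of siNCOA4 cells, so the levels at normal iron are imprecise and no fold against siControl is given. The mean of 0.702 ± 0.313 FPKM (SD, n = 3) in siNCOA4 cells was just above the limit of 0.5 FPKM set for fold changes, and that of siControl cells, 0.116 FPKM, below it.

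Lif, which keeps embryonic stem cells undifferentiated and signals injury in nervous tissue, had the steepest induction of the cytokines with a measurable baseline. It was at 2.40, 1.33 and 1.41 FPKM in siControl cells and at 2.85, 2.95 and 2.93 FPKM in siNCOA4 cells. After DFO it was at 70.1, 78.4 and 68.5 FPKM in siControl cells and at 55.5, 49.0 and 35.5 FPKM in siNCOA4 cells. No siNCOA4 library with DFO reached the lowest siControl library with DFO.

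Csf1 had the highest level of the members before treatment. It was at 59.95, 51.0 and 55.4 FPKM in siControl cells and lower, at 39.3, 38.6 and 41.8 FPKM, in siNCOA4 cells. DFO libraries were at 123, 154 and 137 FPKM in siControl cells and at 105, 94.8 and 73.1 FPKM in siNCOA4 cells. The siNCOA4 libraries thus lay below the siControl libraries in both iron states, and the ratio of mean FPKM with DFO to that without was 2.49 in siControl cells and 2.28 in siNCOA4 cells.

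The CC chemokine genes lie in a cluster on mouse chromosome 11. In the GENCODE annotation of GRCm38, Ccl2 (chr11:82035571-82037453) and Ccl7 (chr11:82045712-82047525) are close together, as are Ccl5 (chr11:83525778-83530518) and Ccl4 (chr11:83662584-83664683). Ccl2, the main monocyte attractant, was at 11.9, 11.8 and 14.9 FPKM in siControl cells and at 30.3, 30.8 and 27.6 FPKM in siNCOA4 cells. With DFO it was at 151, 170 and 115 FPKM in siControl cells and at 99.2, 75.6 and 58.8 FPKM in siNCOA4 cells. The siNCOA4 libraries were the higher at normal iron and the lower with DFO, without overlap in either state.

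Its neighbour Ccl7, which attracts monocytes as well, was level between siRNAs at normal iron, at 10.5, 10.3 and 13.3 FPKM in siControl cells and at 12.6, 13.8 and 12.5 FPKM in siNCOA4 cells. Under DFO it was at 55.0, 51.2 and 50.3 FPKM in siControl cells and at 24.8, 28.1 and 19.6 FPKM in siNCOA4 cells. The libraries overlapped without DFO and were well apart with it.

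Ccl5, a T cell and monocyte attractant, was at 3.39, 5.35 and 5.85 FPKM in siControl cells and at 5.83, 6.63 and 7.34 FPKM in siNCOA4 cells. With DFO its level was 232, 290.3 and 229 FPKM in siControl cells and 139, 116 and 84.1 FPKM in siNCOA4 cells. Ccl4, a macrophage inflammatory protein, was listed at 0 in all 6 libraries without DFO. It was at 9.65, 10.8 and 5.41 FPKM in siControl cells with DFO, from about 16, 21 and 10 fragments. In siNCOA4 cells with DFO it was at 2.30, 3.74 and 0.695 FPKM, from about 4, 7 and 1 fragments, so the value of replicate 3 rests on a single fragment.

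Of the CXC chemokines, Cxcl1 was at 4.88, 9.04 and 5.23 FPKM in siControl cells and at 11.5, 11.2 and 13.1 FPKM in siNCOA4 cells. After DFO it was at 214, 199 and 159 FPKM in siControl cells and at 109.7, 98.2 and 49.1 FPKM in siNCOA4 cells. As in Ccl2, the siNCOA4 libraries stood above the siControl libraries without DFO and below them with it. Cxcl10 was at 2.74, 4.90 and 1.17 FPKM in siControl cells and at 3.93, 3.78 and 4.39 FPKM in siNCOA4 cells, which overlapped. With DFO it was at 292, 325 and 240.0 FPKM in siControl cells and at 206, 158 and 118 FPKM in siNCOA4 cells, which did not.

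Cd14 was at 2.37, 1.72 and 2.40 FPKM in siControl cells and at 4.29, 3.24 and 2.61 FPKM in siNCOA4 cells. Under DFO it was at 10.2, 8.83 and 9.53 FPKM in siControl cells and at 7.19, 7.56 and 5.13 FPKM in siNCOA4 cells. The groups were apart in both states, although the 2 nearest libraries without DFO, at 2.40 and 2.61 FPKM, rest on about 13 and 17 fragments.

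**Figure D2:**
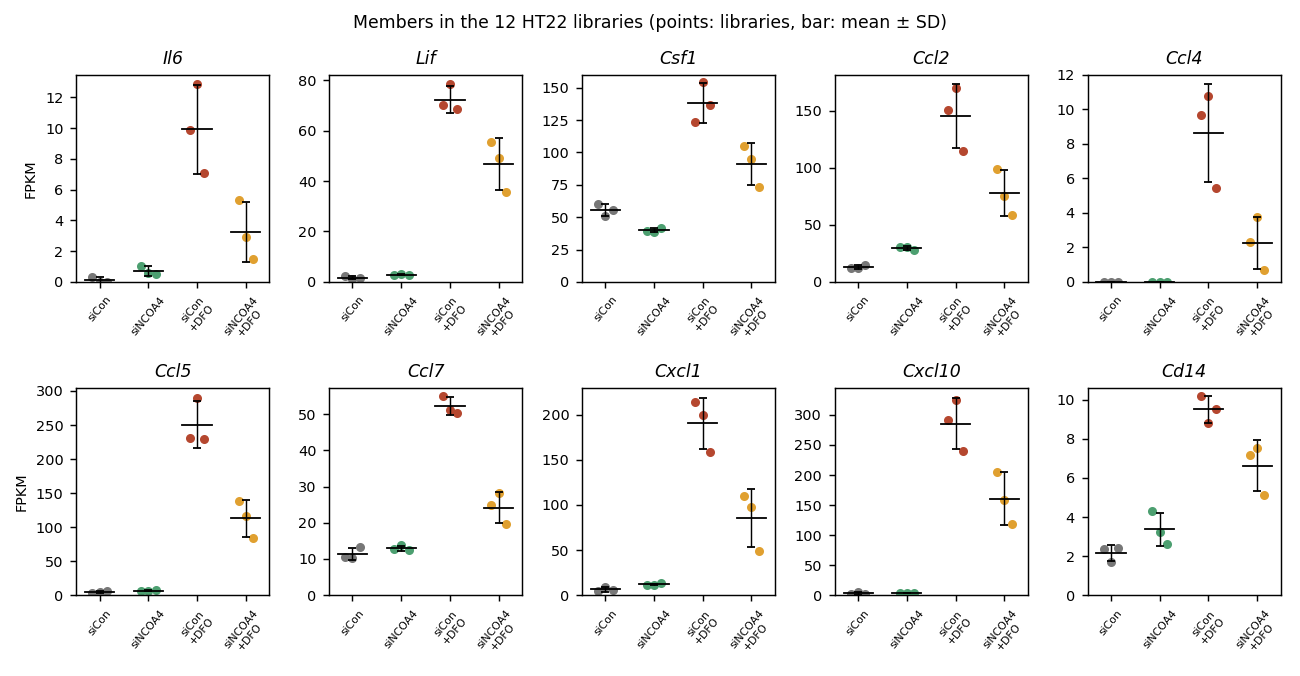
FPKM of the 10 members in each of the 12 libraries (points) by group, with the mean and SD of 3 libraries as a bar and whiskers and a separate linear axis from 0 for each gene. In all 10 panels the siNCOA4+DFO libraries lie between the libraries without DFO and the siControl+DFO libraries.

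Ordered by level, Csf1 led the members in siControl cells at 55.5 ± 4.49 FPKM (SD, n = 3), ahead of Ccl2 and Ccl7, whose libraries overlapped. Cxcl1, Ccl5, Cxcl10, Cd14 and Lif followed, each overlapping the next. With DFO the order in siControl cells was led by Cxcl10 at 286 ± 43.0 FPKM and Ccl5 at 250.4 ± 34.6 FPKM, which overlapped. Cxcl1, Ccl2 and Csf1 overlapped in turn, Lif and Ccl7 each stood alone, and Il6, Cd14 and Ccl4 overlapped at the bottom. In siNCOA4 cells with DFO, Cxcl10 was first again at 161 ± 44.0 FPKM, and the 5 highest members overlapped from one to the next. The members are measured in bulk RNA, where fewer cells making a transcript and less of it per cell cannot be told apart. The authors report altered morphology and reduced viability in cells given both siNCOA4 and DFO, and no loss of viability with either alone. The part of this in the members' values was not tested.

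For the change with DFO, differences of log2(FPKM + 0.1) were fitted with limma over the 11924 genes that passed 0.5 FPKM in 3 libraries, and a gene was called at a fold above 2 and an adjusted p below 0.05. All 10 members passed the filter, Ccl4 and Il6 only through the DFO libraries. In siControl cells all 10 were called higher, where 11.1% of all genes were called higher and 7.76% lower. In siNCOA4 cells 8 were called higher, where 7.59% were called higher and 3.83% lower, the exceptions being Ccl7 and Cd14. Without siNCOA4+DFO replicate 3 all 10 were, with log2 changes of 1.02 for Ccl7 and 1.14 for Cd14. As the members were selected on these contrasts, nothing is read from the counts. The median log2 change of the members was 5.14 in siControl and 2.36 in siNCOA4 cells, against -0.01 and -0.00 over all genes. Medians of the members, here and below, include Il6 and Ccl4, whose changes from means below 0.5 FPKM rest on the pseudocount of 0.1.

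The size of the induction ran over a wide range. Cxcl10 had a log2 change of 6.76 ± 0.37 (SE) with DFO in siControl cells and 5.25 ± 0.37 in siNCOA4 cells. Ccl5 had 5.69 ± 0.21 and 4.05 ± 0.21, and Lif 5.36 ± 0.20 and 3.93 ± 0.20. Cxcl1 had 4.92 ± 0.28 and 2.75 ± 0.28, and Ccl2 3.48 ± 0.18 and 1.36 ± 0.18. In these 5 genes the fold was 11.2 or more in siControl cells, and the change was smaller in siNCOA4 cells in each. Ccl7 had 2.20 ± 0.13 and 0.88 ± 0.13, Cd14 had 2.1005 ± 0.21 and 0.96 ± 0.21, and Csf1 had 1.31 ± 0.12 and 1.17 ± 0.12. Il6 had a log2 change of 1.96 ± 0.59 in siNCOA4 cells.

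**Figure D3:**
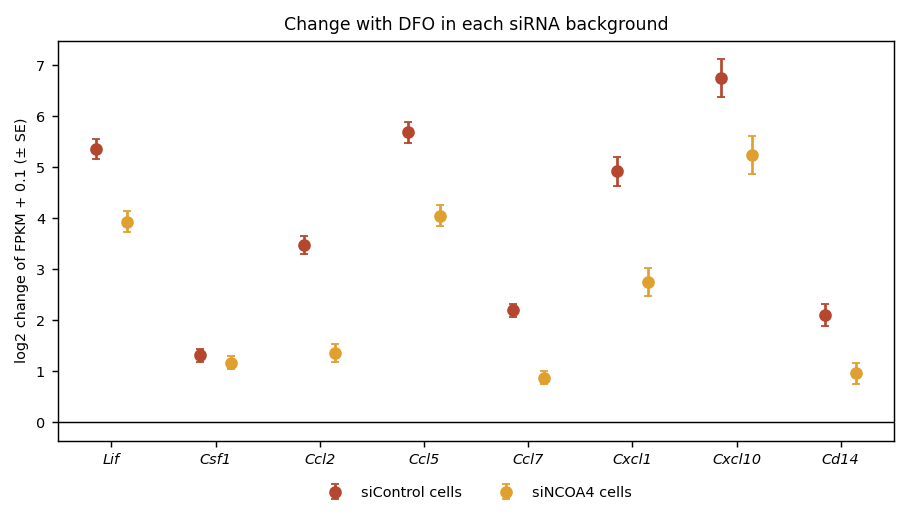
Log2 change of FPKM + 0.1 with DFO (points, with SE) in siControl and siNCOA4 cells for the 8 members with a measurable baseline. The siNCOA4 point is the lower in each pair, by 2.17 for Cxcl1 and by 0.14 for Csf1.

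The difference between the DFO changes, siNCOA4 minus siControl, was below 0 for all 10 members, with a median of -1.57 against -0.01 over all genes. This difference is part of what chose the members, and the 6 of them called lower at an adjusted p below 0.05 (Il6, Lif, Ccl2, Ccl5, Ccl7 and Cxcl1), where 1.43% of all genes were, are given as a description. It came to -2.17 ± 0.40 (SE) for Cxcl1, -2.12 ± 0.26 for Ccl2 and -1.63 ± 0.30 for Ccl5. It came to -1.51 ± 0.52 for Cxcl10, -1.43 ± 0.29 for Lif, -1.32 ± 0.19 for Ccl7 and -1.14 ± 0.30 for Cd14. Csf1 was nearest to no difference at -0.14 ± 0.18, and at 0.0071 without siNCOA4+DFO replicate 3. On the linear scale, the gain in mean FPKM with DFO in siNCOA4 cells was 25.9% of that in siControl cells for Il6, 26.1% for Ccl4 and 27.5% for Ccl7. It was 36.5% for Ccl2, 40.0% for Cxcl1, 43.3% for Ccl5 and 44.2% for Cd14, and reached 55.4% for Cxcl10, 61.7% for Csf1 and 62.0% for Lif. The count of members called for the difference was 2 without siNCOA4 replicate 3, 3 without siControl+DFO replicate 1 and 5 without siNCOA4+DFO replicate 3.

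At normal iron, siNCOA4 cells were higher than siControl cells in 8 members, lower in Csf1, and Ccl4 was listed at 0 in both. The difference between the DFO changes is the siNCOA4 effect under DFO minus that at normal iron, so this contrast too is bound to the choice of the members. The counts are therefore a description, and no p-value of a member is given. At an adjusted p below 0.05, 4 members were higher (Il6, Lif, Ccl2 and Cxcl1), where 4.52% of all genes were, and Csf1 was lower, where 7.21% were. With a fold above 2 as well, Ccl2 and Il6 were called higher, where 0.805% of all genes were, and the values of Il6 rest on 1, 0 and 0 fragments against 4, 2 and 2. The libraries did not overlap, with siNCOA4 the higher, in 5 members (Il6, Lif, Ccl2, Cxcl1 and Cd14), against 14.9% of all genes. Il6 lost its call with a pseudocount of 1, without a filter on low values, with moderation without a trend and with the compared groups alone. The call of Il6 was also lost without siControl replicate 3 and without each siNCOA4 replicate. Lif, Cxcl1 and Csf1 crossed the adjusted p of 0.05 under some other settings of the fit and on leaving out single libraries. Ccl2 stayed below it throughout.

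The log2 difference at normal iron was 1.20 ± 0.18 (SE) for Ccl2, a fold of 2.30. It was 0.95 ± 0.28 for Cxcl1, 0.78 ± 0.20 for Lif, 0.61 ± 0.21 for Cd14 and 0.47 ± 0.21 for Ccl5. For Ccl7 it was 0.20 ± 0.13 and for Csf1 -0.47 ± 0.12. That of Cxcl10, 0.65 ± 0.37, moved between 0.13 and 1.12 as single libraries were left out. The median of the members was 0.63 against 0.00 over all genes. In the same comparison the macrophage marker Lyz2 rose from 0.692 ± 0.963 (SD, n = 3) to 2.90 FPKM (log2 2.80 ± 0.84, limma adjusted p = 0.0491). Of the same list, Tmem119 went down from 10.7 to 4.17 FPKM and Cd68 from 1.87 to 1.57 FPKM. The astrocyte marker Aldh1l1 rose from 0.324 to 0.811 FPKM (limma adjusted p = 0.0212). Of its list, Gja1 went up from 25.3 to 33.0 FPKM and Slc1a3 down from 42.1 to 24.0 FPKM. The part of these markers in the members' values was not tested.

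In the presence of DFO all 10 members were lower in siNCOA4 than in siControl cells without overlap of the libraries, where 20.1% of all genes were, and 4 were called lower (Ccl4, Ccl5, Ccl7 and Cxcl1), where 1.01% were. The members were chosen with these libraries, so both counts are a description. The median of the members was -1.02 against -0.01 over all genes. The log2 differences were -2.11 ± 0.52 (SE) for Ccl4, -1.71 ± 0.59 for Il6 and -1.22 ± 0.28 for Cxcl1. They were -1.17 ± 0.21 for Ccl5, -1.12 ± 0.13 for Ccl7, -0.91 ± 0.18 for Ccl2 and -0.86 ± 0.37 for Cxcl10. Lif at -0.65 ± 0.20, Csf1 at -0.61 ± 0.12 and Cd14 at -0.53 ± 0.21 had the smallest. As shares of the siControl+DFO mean, the siNCOA4+DFO means ran from 26.1% for Ccl4 to 69.6% for Cd14.

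The siNCOA4+DFO library of replicate 3 was the lowest of the 6 DFO libraries in all 10 members. Without it, 1 member instead of 4 was called lower under DFO. The log2 differences were then -1.46 for Ccl4, -0.98 for Ccl7, -0.97 for Ccl5 and -0.86 for Cxcl1, and all 10 members remained lower. In siControl cells with DFO, replicate 2 was the highest in 7 members and replicate 1 in 3. The part of depth and of Ncoa4 level in these ranks was not tested.

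**Figure D4:**
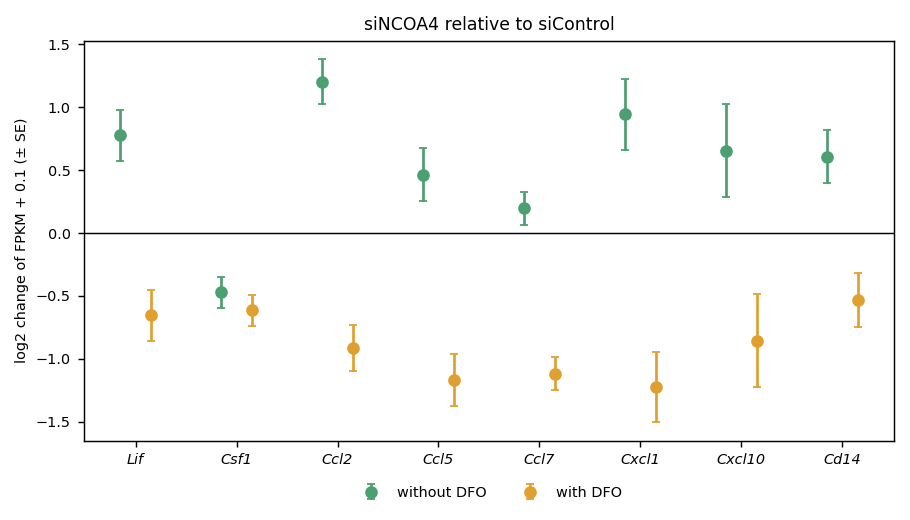
Log2 difference of FPKM + 0.1 between siNCOA4 and siControl cells (points, with SE), without and with DFO, for 8 members. Points lie above 0 without DFO except for Csf1 at -0.47, and all lie below 0 with DFO, between -1.22 and -0.53.

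Of 19 receptors and coreceptors 8 were tested, and 3 rose and 1 fell with DFO in siControl cells, and 3 rose in siNCOA4 cells. For this list and those below, 11.1% of all genes were called higher and 7.76% lower with DFO in siControl cells. In siNCOA4 cells the shares were 7.59% and 3.83%. Cxcr3, Ackr1 and Ackr2 were listed at 0 in all libraries, and Ccr1, Ccr2, Ccr3, Cxcr1, Cxcr2 and the CSF1 receptor gene Csf1r had group means below 0.1 FPKM. Ackr3, an atypical chemokine receptor, was at 8.63 FPKM in siControl and 7.03 FPKM in siNCOA4 cells, and at 16.6 and 9.71 FPKM with DFO, with no fold above 2. Of the receptors of the gp130 family listed, Osmr, Il6ra and Il6st were present. Osmr, the oncostatin M receptor, rose from 4.43 to 30.7 FPKM in siControl cells (log2 2.77 ± 0.12, limma adjusted p = 4.65e-09) and from 4.85 to 25.3 FPKM in siNCOA4 cells. Il6ra, the IL-6 binding chain, rose from 6.46 to 16.9 FPKM and from 5.60 to 14.7 FPKM. Il6st, which encodes gp130, was at 82.1 FPKM in siControl cells and 56.7 FPKM with DFO, and Lifr stayed below 0.5 FPKM in each group mean. Tlr4, the lipopolysaccharide receptor served by CD14, rose from 19.1 to 47.7 FPKM in siControl cells (log2 1.31 ± 0.10, limma adjusted p = 5.07e-07) and from 20.1 to 44.98 FPKM in siNCOA4 cells. Lbp, which carries lipopolysaccharide to CD14, was at 0.643 FPKM and 0.186 FPKM with DFO.

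Of 30 other chemokine genes, 6 were tested and 11 were listed at 0 in all libraries, among them Cxcl2 and Ccl3, close relatives of Cxcl1 and Ccl4. None of the 6 tested was called higher with DFO in either siRNA background, against 11.1% and 7.59% of all genes. Ccl9 was called lower in both. Genes that did not pass the filter could not be called, and nothing is read from a count over 6 genes. Ccl9 fell from 22.9 to 10.3 FPKM in siControl cells (log2 -1.16 ± 0.16, limma adjusted p = 7.69e-05) and from 31.4 to 15.01 FPKM in siNCOA4 cells. Cxcl5, a neutrophil attractant, fell from 18.5 to 8.04 FPKM in siNCOA4 cells and was at 12.5 and 8.74 FPKM in siControl cells, where its fold stayed under 2. The median change of the 6 tested was -0.28 in siControl cells.

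Of 40 other cytokines 15 were tested, and 8 rose with DFO in siControl cells and 6 in siNCOA4 cells, with none called lower. Their median changes were 1.11 and 0.96. Ifnb1, the antiviral interferon beta, was listed at 0 in siControl cells and averaged 8.09 FPKM with DFO, against 0.250 and 2.75 FPKM in siNCOA4 cells. Csf2, the growth factor GM-CSF, was listed at 0 without DFO and averaged 3.42 FPKM in siControl and 1.22 FPKM in siNCOA4 cells with it. Gdf15, a cytokine of cellular stress, went from 0.215 to 5.13 FPKM in siControl cells and from 0 to 3.94 FPKM in siNCOA4 cells. None of the 15 was called for the difference between the DFO changes, where 1.43% of all genes were called lower. With DFO, the siNCOA4 libraries of Ifnb1 and Csf2 lay below the siControl libraries without overlap, and those of Gdf15 overlapped.

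Of 14 NF-kB subunits and feedback genes 9 were called higher with DFO in siControl cells and 5 in siNCOA4 cells, with medians of 1.17 and 0.83. Tnfaip3, which encodes the inhibitor A20, rose from 2.21 to 31.6 FPKM in siControl cells (log2 3.84 ± 0.26, limma adjusted p = 2.21e-07) and from 1.73 to 15.02 FPKM in siNCOA4 cells. Nfkbia, the inhibitor that holds NF-kB in the cytoplasm and is itself an NF-kB target, rose from 18.7 to 168 FPKM and from 18.8 to 68.8 FPKM. Its DFO change was smaller in siNCOA4 cells by -1.30 ± 0.21 (limma adjusted p = 0.0134). Rela, the p65 subunit, rose from 16.9 to 64.0 FPKM and from 18.5 to 46.2 FPKM. In the CD14 and TLR4 signalling list, 1 of 17 tested genes was called lower in siControl cells, against 7.76% of all genes. In each background 1 was called higher, against 11.1% in siControl and 7.59% in siNCOA4 cells. That riser was Chuk, an I-kappa-B kinase subunit, from 19.3 to 62.6 FPKM and from 24.5 to 56.5 FPKM, with a difference between the DFO changes of -0.49 ± 0.10 (limma adjusted p = 0.0339). Irak4, a kinase of the same pathway, fell from 6.76 to 3.22 FPKM in siControl cells.

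Of 14 tested genes of gp130 and STAT3 signalling and their targets, 5 rose in siControl and 4 in siNCOA4 cells. Junb, an AP-1 subunit, rose from 9.05 to 131 FPKM in siControl cells (log2 3.85 ± 0.23, limma adjusted p = 7.5e-08) and from 6.48 to 55.2 FPKM in siNCOA4 cells. The kinase gene Pim1 rose from 1.91 to 20.3 FPKM and from 1.18 to 6.21 FPKM. Lcn2, an iron-siderophore binding protein, was listed at 0 without DFO and averaged 1.44 and 1.04 FPKM with it. Of 11 regulators of cytokine mRNA decay, 4 rose in siControl and 2 in siNCOA4 cells. Zfp36, which encodes the destabilizing protein tristetraprolin, rose from 3.80 to 50.2 FPKM in siControl cells (log2 3.69 ± 0.25, limma adjusted p = 1.96e-07) and from 2.60 to 22.2 FPKM in siNCOA4 cells. Its relative Zfp36l2 rose from 59.6 to 153 FPKM and from 39.2 to 83.5 FPKM, and the decay factor gene Rc3h1 rose from 13.2 to 31.7 FPKM in siControl cells.

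Genes of iron deficiency and hypoxia served as a comparison for the treatment, and 8 of 10 tested rose in each background, with medians of 2.00 and 1.76. Tfrc, the transferrin receptor, rose from 70.3 to 328 FPKM in siControl cells (log2 2.22 ± 0.09, limma adjusted p = 3.08e-09) and from 72.0 to 240.0 FPKM in siNCOA4 cells. Ndrg1 rose from 38.1 to 339 FPKM and from 21.3 to 152 FPKM. Ddit4, a stress-induced inhibitor of mTORC1, rose from 23.3 to 154 FPKM and from 29.9 to 109 FPKM, with a difference between the DFO changes of -0.87 ± 0.17 (limma adjusted p = 0.0271).

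**Figure D5:**
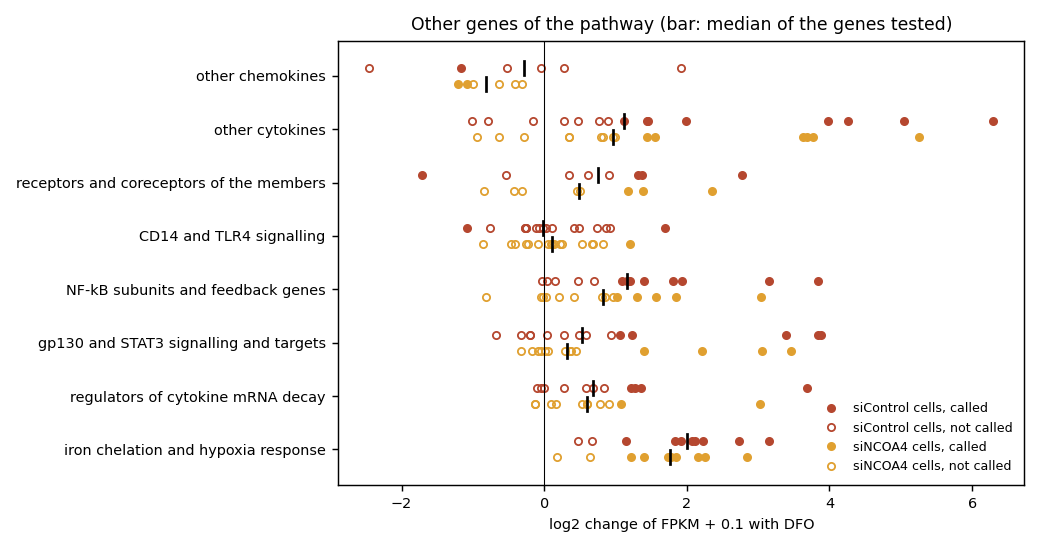
Log2 change with DFO of each tested gene (circles, filled where called) in 8 lists of related genes, in siControl and siNCOA4 cells, with the median of each list as a bar. The medians of the iron and hypoxia list stand at 2.00 and 1.76, and no tested gene among the other chemokines is called higher.

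Markers of microglia and macrophages, cells that make these mediators in brain, were examined alongside. Of 16 markers, 3 had a mean of at least 0.5 FPKM (Tmem119, Cd68 and Lyz2), and Tyrobp, C1qa, C1qb, C1qc and P2ry12 were listed at 0 in all 12 libraries. The summed level of the list was 12.99 to 14.5 FPKM in siControl and 7.52 to 11.2 FPKM in siNCOA4 cells. With DFO it was 3.98 to 5.21 and 5.79 to 8.07 FPKM, so DFO libraries of siControl cells had the lowest sum. Tmem119 carried this fall, from 10.7 to 0.780 FPKM in siControl cells, while Cd68 was at 1.87 and 2.22 FPKM and Lyz2 at 0.692 and 1.02 FPKM. Of the fibroblast and mesenchymal markers, 6 of 9 tested fell with DFO in siControl cells and 3 in siNCOA4 cells. Their sum was 3398 to 3892 FPKM in siControl and 2503 to 2753 FPKM in siNCOA4 cells, and 2054 to 2178 and 1881 to 2078 FPKM with DFO. Of 7 astrocyte markers 3 were tested, and 1 rose (Gja1) and 1 fell (Slc1a3) with DFO in siControl cells. In siNCOA4 cells Slc1a3 fell and Aldh1l1 rose, from 0.811 to 2.50 FPKM (log2 1.51 ± 0.27, limma adjusted p = 0.000738), and with DFO Aldh1l1 was higher in siNCOA4 than in siControl cells (0.678 FPKM, limma adjusted p = 0.00154). The summed astrocyte markers lay between 56.5 and 71.7 FPKM in all libraries. Neither tested neuron marker was called with DFO. The part of these shifts in the members' values was not tested.

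The gene whose log2(FPKM + 0.1) went most closely with a member over the 12 libraries was named as a description for 9 members, in libraries that lie apart by DFO treatment. Pearson's r was 0.998 for Lif with Ifit1, an interferon-induced gene, and 0.998 for Ccl5 with Chka. It was 0.996 for Ccl4 with Aars and for Cxcl10 with Tbc1d2, and 0.995 for Cxcl1 with Mxd1. It was 0.991 for Csf1 with Cdt1, 0.989 for Il6 with Hyal3, 0.987 for Ccl7 with Fam133b and 0.981 for Cd14 with Skil.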

How the data were processed

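RNA-seq of 12 HT22 libraries was analysed, grouped by the sample titles. The authors deposited a table of FPKM for each library, made per the submitters' processing notes with Trimmomatic 0.33, FastQC, HISAT2 2.1.0, featureCounts and edgeR on mm10. The tool that computed FPKM and the annotation are not given in the sources used here. Total counts are not in FPKM. Relative depth and fragment numbers were estimated from the step of 1 fragment in low genes (whole within 0.15) and cover counting error only, and a value of 0 is described as listed at 0. Libraries came from a stranded total RNA kit.

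Of 24347 entries, 4 sharing a name were left out. Values of log2(FPKM + 0.1) were taken for the 11924 genes that reached 0.5 FPKM in 3 or more libraries and fitted with limma 3.58.1 in R 4.3.3 as group means over all 12 libraries, with moderation along a mean trend (8 residual and 4.07 prior degrees of freedom) and Benjamini-Hochberg adjustment within each comparison. The pseudocount of 0.1 understates the change of low genes. The fit was tested on simulated data. Calls needed a fold above 2 and an adjusted p below 0.05, and the difference between DFO changes the adjusted p alone. The members and lists were chosen with earlier results of these data known. Named were all members, their receptors, Ncoa4, up to 3 called genes per list with the largest DFO change in siControl cells, and the gene most correlated with each member (that of Ccl2 and 1 receptor are not reported here); Cxcl5, Cxcl2, Ccl3, Cd68, Lyz2 and Aldh1l1 were named after their values were seen. Folds against group means below 0.5 FPKM were not printed, but calls and medians include such genes through the pseudocount. Alternatives were other pseudocounts, filters, scalings, a replicate block, other moderation, the compared groups alone and leaving out each library. Motifs were searched with Python 3.11.15, and figures drawn with matplotlib 3.10.9.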

Additional observations from a re-analysis of the deposited data

Results flagged for a closer look

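The members were chosen on the contrast between the DFO changes in siNCOA4 and siControl cells, so that 6 of them pass the threshold of limma's test for it repeats that choice and is no independent finding. The differences were -1.43 for Lif, -2.12 for Ccl2, -1.63 for Ccl5, -1.32 for Ccl7 and -2.17 for Cxcl1 on the log2 scale, and for Il6 the FPKM gain in siNCOA4 cells was 25.9% of that in siControl cells. Among the related genes named here, which are no members, the same test (adjusted p below 0.05) picked out Nfkbia at -1.30, Ddit4 at -0.87 and Chuk at -0.49. Genes not named here passed as well. They were 1 of gp130 and STAT3 signalling and 1 regulator of mRNA decay, both lower. Of the 9 fibroblast and mesenchymal markers tested, 3 passed with a positive difference. The median difference of the 9 was 0.92, against -0.01 over all genes.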

How the results depend on the processing

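No called value reversed. The difference between the DFO changes of Csf1, which was not called, went from -0.14 to 0.0071 without siNCOA4+DFO replicate 3. All 10 members stayed called with DFO in siControl cells under each alternative and on leaving out each library (10 to 10), and 7 to 10 in siNCOA4 cells on leaving out a library, 10 without siNCOA4+DFO replicate 3. At normal iron the count called fell from 2 to 1 with a pseudocount of 1, without a filter on low values, with moderation without a trend and with the compared groups alone, and was 1 to 3 on leaving out a library. It was 1 without siControl replicate 3 and without each siNCOA4 replicate. Wherever the count was 1, Ccl2 was still called and Il6 was not. Under DFO leaving out a library gave 1 to 6 called members, and for the difference 2 to 6. The cause was not tested.

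The replicate numbers did not pair the samples, since deviations from the group means of same-numbered libraries correlated at -0.127 to 0.116. With the replicate number as a block, 5 members were called under DFO, and the counts were 10, 8, 2 and 6 in the other comparisons. Precision is limited for Il6 and Ccl4, whose values rest on few fragments.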
